A study of Drosophila melanogaster with 2 samples.

Results

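The peaks described here are the sites on the X chromosome at which the Drosophila melanogaster protein Ravus was found away from gene starts. Ravus was mapped by chromatin immunoprecipitation and sequencing (ChIP-seq), which recovers the DNA bound by a protein with an antibody. The chromatin came from whole embryos collected over 0 to 24 h from 1 transgenic strain that makes a fusion of Ravus with the green fluorescent protein eGFP, and the antibody was directed against GFP. The series holds 1 group of 2 biological replicates of this line, so no genotype, treatment or stage can be compared. The sex of the embryos is marked as not collected, so the share of X chromosomes in the chromatin is not known. Whole embryos mix all cell types of all stages of embryogenesis, and a peak can come from any of them.

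A peak was counted when it stood in the authors' conservative list or in their further thresholded list, both made from the 2 replicates. The authors ordered and cut these lists by the irreproducible discovery rate (IDR), which scores each peak by the repeatability of its rank. Where intervals of the lists overlapped, the conservative one was kept. The joined lists hold 1748 peaks, 1743 of them on X and the autosomal arms and 361 on X. A peak was taken as lying away from gene starts when its summit, the position of its highest signal, was more than 500 bp from every start site annotated in Ensembl BDGP6. This left 203 peaks on X, which is 56.2% of the X peaks. The same rule left 640 of 1382 autosomal peaks, or 46.3%. All coordinates are on dm6.

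The X chromosome is present as a pair in female flies and as a single copy in males. Male flies raise the transcription of their X through the dosage compensation complex, which carries the roX RNAs and the acetyltransferase Mof and is recruited to X sites rich in GA repeats. Peaks away from gene starts often lie in introns or between genes, where enhancers and other regulatory elements can be found. Ravus belongs to a family of fly proteins with MADF and BESS domains, in which the MADF domain binds DNA in members such as Adf1.

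The 61 bp around the summit are shown for some of the strongest X peaks, as examples of the A/T-rich summits described below over all 203 peaks, and for a second peak in Raf that is richer in G and C. All are read on the plus strand of dm6, 5′ to 3′, and capitals mark the longest unbroken run of A and T in the stretch shown. They come from the first or a later intron of CG32772 (chrX:4910326-4910386), of norpA (chrX:4324966-4325026), of NFAT (chrX:13640477-13640537), of Tlk (chrX:3742183-3742243), of CG3726 (chrX:5918864-5918924), of CHES-1-like (chrX:7706992-7707052) and of Raf (chrX:2300689-2300749), and from an exon of the long non-coding RNA gene lncRNA:CR44619 (chrX:12752341-12752401).
CG32772: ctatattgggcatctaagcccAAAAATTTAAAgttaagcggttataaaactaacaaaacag
norpA: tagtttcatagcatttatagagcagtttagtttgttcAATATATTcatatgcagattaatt
NFAT: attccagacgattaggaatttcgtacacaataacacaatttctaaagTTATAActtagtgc
lncRNA:CR44619: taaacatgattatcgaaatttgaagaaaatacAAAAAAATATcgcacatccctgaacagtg
Tlk: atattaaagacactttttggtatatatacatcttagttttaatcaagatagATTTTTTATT
CG3726: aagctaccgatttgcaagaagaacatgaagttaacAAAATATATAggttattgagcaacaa
CHES-1-like: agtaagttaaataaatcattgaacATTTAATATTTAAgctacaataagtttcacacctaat
Raf: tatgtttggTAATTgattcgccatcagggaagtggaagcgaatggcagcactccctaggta
The Tlk stretch holds 18.0% G and C and the CHES-1-like stretch 21.3%, against 47.5% in the Raf stretch. The longest A/T run is 13 bp in CHES-1-like and 5 bp in Raf.

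Ravus peaks away from gene starts were denser on X than on any autosomal arm. X carried 9.87 peaks per Mb of sequence lying more than 500 bp from every start site (203 peaks in 20.6 Mb). The large autosomal arms carried 7.04 on 2L, 6.62 on 2R, 7.06 on 3L and 6.47 on 3R, and the small chromosome 4 carried 2.49, from 3 peaks. The density on X was 1.47 times the density on the autosomes as a whole, with an exact 95% interval of 1.25 to 1.72. Such intervals cover counting error over peaks only, and peaks are not replicates. The ratio was 1.38 in the thresholded list of replicate 1 alone (156 X peaks against 523 autosomal) and 1.42 in that of replicate 2 alone (224 against 732). With 1 group and no second condition the difference between X and the autosomes was not tested. Peaks within 500 bp of a start site were counted in the same way, at 4.04 per 100 start positions on X and 3.77 on the autosomes, a ratio of 1.07.

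The higher density lay in introns. Of the 203 X peaks, 172 had their summit in an intron, or 84.7% (exact 95% interval 79.0 to 89.4). On the autosomes 453 of 640 did, or 70.8% (67.1 to 74.3), with arms from 63.6% on 3L to 77.8% on 3R. The share was 82.1% on X and 69.6% on the autosomes in replicate 1, and 83.5% and 69.9% in replicate 2. Introns made up 49.6% of the sequence away from start sites on X and 44.8% on the autosomes. Per Mb of intron, X held 16.9 peaks and the autosomes 10.6, with the 4 large arms between 10.1 and 11.5. The ratio was 1.59, with an interval of 1.32 to 1.89.

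Between genes the order was the other way round. X held 18 intergenic peaks, 3.39 per Mb of intergenic sequence, against 5.10 on the autosomes, where the large arms ran from 4.03 to 6.17. The ratio was 0.664, and its interval, 0.384 to 1.08, includes equal densities. The strongest intergenic peak on X lay 809 bp upstream of ph-d, a Polycomb group gene, with a signal of 224.5. Its signal was 95.8 in replicate 1 and 117.7 in replicate 2. The next lay 1917 bp upstream of Atf3, which encodes a bZIP transcription factor, with a signal of 211.4 (84.6 and 122.9 in replicates 1 and 2). Signal here and throughout is the authors' value for a peak, in a unit that the labels and files do not name. Replicate values come from separate lists and are not on the scale of the joint list.

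**Figure D1:**
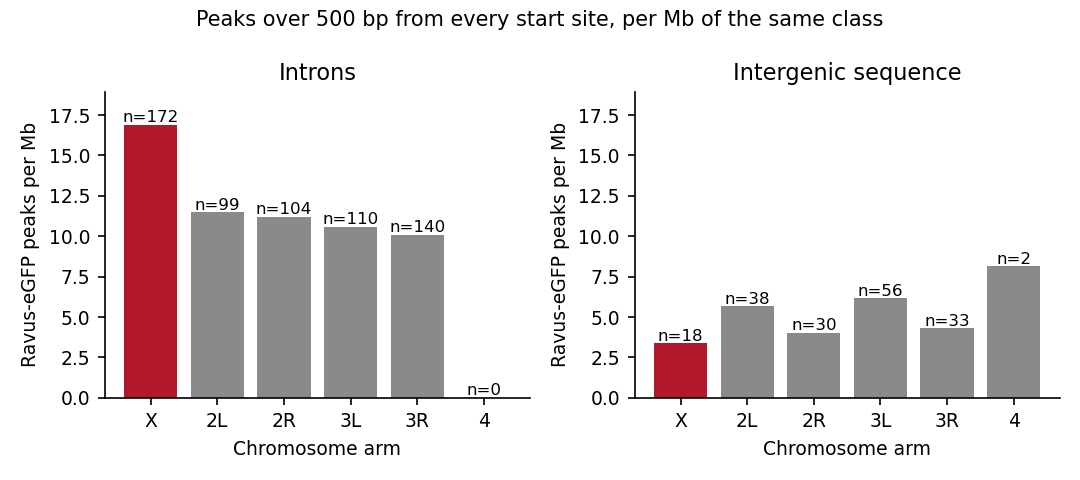
Ravus-eGFP peaks over 500 bp from every start site, per Mb of intron (left) and per Mb of intergenic sequence (right), for each chromosome arm. Bars give the peak density in the joined lists and n is the number of peaks. X stands at 16.9 per Mb in introns, above the 10.1 to 11.5 of the large autosomal arms, and at 3.39 per Mb between genes, below their 4.03 to 6.17.

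Few of the X summits lay in exons. There were 3 in 5′ UTRs, 5 in 3′ UTRs and 5 in other exons, most of them of non-coding RNAs, and none in coding sequence, which allows a share of up to 1.80%. The first 3 classes took 1.48%, 2.46% and 2.46% of X summits, and 0.625%, 1.25% and 2.19% of autosomal ones. Coding sequence held 2 of 640 autosomal summits, so few lay in exons on either. The strongest in a 5′ UTR was in baz, which encodes the polarity protein Bazooka (Par-3), with a signal of 414.8 (187.9 and 219.6 in replicates 1 and 2). The strongest in a 3′ UTR was in APC7, which encodes a subunit of the anaphase-promoting complex, with a signal of 316.5 (126.5 and 191.8). That summit lay 561 bp upstream of a start site of the neighbouring gene pigs, so its place in APC7 does not say which gene it belongs to.

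Intronic X peaks lay in longer introns than autosomal ones, and a smaller share of them lay in first introns. Both values are taken over peaks, and neither was set against all introns of X or of the autosomes. Over intronic peaks, the median length of the intron around the summit was 10387 bp on X and 8348 bp on the autosomes. The shortest intron was taken where several held a summit, and an intron with several peaks counts once for each. Of the intronic X peaks, 108 of 172 lay in the first intron of some transcript, or 62.8% (55.1 to 70.0). On the autosomes 343 of 453 did, or 75.7%, and the large arms ran from 72.1% to 79.8%. The median X peak lay 1963 bp from the nearest start site. There were 46 peaks up to 1000 bp away (22.7%), 113 from there to 5000 bp (55.7%), 36 from there to 20000 bp (17.7%) and 8 farther off (3.94%). Downstream of the nearest start site lay 118, or 58.1%, the same percentage as on the autosomes.

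The 3 peaks farthest from any start site were intronic. The farthest lay 42304 bp away in mamo, which encodes a zinc finger transcription factor, with a signal of 179.7 (89.4 and 91.5 in replicates 1 and 2). The next lay 36675 bp away in kirre, which encodes an adhesion protein of the immunoglobulin superfamily needed for myoblast fusion, with a signal of 87.0 (38.9 and 45.8). The next, 32181 bp away in CG43759, had a signal of 83.8 (27.5 and 57.6). At the other end, peaks lay close to the limit of 500 bp on both sides. Just inside it stood lncRNA:CR44619 at 504 bp (signal 531.7), CG43658 at 504 bp (105.9) and elav at 524 bp (93.8). Just outside stood a pair of peaks at ph-p, at 496 bp (439.6) and 497 bp (873.1), and CG17896 at 499 bp (410.8).

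The strongest X peak away from gene starts lay in an intron of CG32772, 1254 bp downstream of its start site. Its signal was 750.1, with values of 318.2 in the list of replicate 1 and 421.4 in that of replicate 2. The next lay in norpA, which encodes the phospholipase C of fly vision, with a signal of 579.6 (273.5 and 309.7). NFAT, which encodes the fly member of the NFAT transcription factor family, held the next at 549.2 (203.2 and 338.4). The peak in lncRNA:CR44619 followed at 531.7 (222.1 and 311.3). Each of these 4 stood in the thresholded list of both replicates, as did all 20 of the strongest.

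Other peaks among the strongest 20 lay in genes of several kinds. Kinase genes held 3 of them, with Tlk, the Tousled-like kinase, at 521.6 (200.9 and 321.3 in replicates 1 and 2) and Raf, the kinase that activates the MAP kinase cascade, at 399.0 (176.4 and 223.7) and 314.7 (131.8 and 183.7). CG3726 held a peak of 521.4 (200.5 and 318.6). CHES-1-like, a forkhead transcription factor gene, held one of 382.5 (162.5 and 233.7). LPCAT, which encodes a lysophosphatidylcholine acyltransferase, held one of 350.9 (126.1 and 222.0). Moe, which encodes Moesin, the protein that ties actin to the cell membrane, held one of 280.3 (127.0 and 152.0). Further ones were in CG42258 (285.1), in the overlapping introns of CG32795 and kirre (282.0), in CG34417 (274.5), in lncRNA:CR44619 again (273.5), in Pits (272.3) and in CG32767 (270.4). Replicate 2 gave the higher value in 19 of these 20, the exception being the second lncRNA:CR44619 peak (141.8 and 133.6). Its values were higher in general. The median log2 ratio of replicate 2 over replicate 1 was 0.47 over X peaks and 0.44 over autosomal peaks away from gene starts. The replicate lists were not put on a common scale, so this difference is not read as one of binding.

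X peaks away from gene starts were about as strong as their autosomal counterparts. The median signal was 116.8 on X (quartiles 90.4 and 163.3, range 69.4 to 750.1) and 110.8 on the autosomes, whose arms other than 4 ran from 109.6 to 114.6. In replicate 1 the medians of the same peaks were 48.9 and 47.6, and in replicate 2 they were 68.7 and 64.9. Across the X peaks with a value in both replicates, all but 2, Spearman's rho was 0.747 and Pearson's r of the log2 signals 0.838, as a description across peaks that share both libraries. Over 636 autosomal peaks the values were 0.676 and 0.791. Both sets come from lists cut by the IDR, so some agreement between replicates follows from how the peaks were chosen. The replicate summits of a peak lay a median of 18 bp apart on X.

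Most X peaks were also called in each replicate by itself. The joined lists were cut by the IDR and made from these same replicates, so this overlap is not a separate check. The thresholded list of replicate 1 held 144 of the 203, or 70.9%, where 75.0% of all 1743 peaks on the arms stood in that list. The thresholded list of replicate 2 held 185, or 91.1%, against 88.8% of all peaks. Both held 136, or 67.0% (60.1 to 73.4), and on the autosomes 64.1%. These shares are near those of all peaks. In neither list stood 10 X peaks, with signals of 69.4 to 88.7. They include the weakest X peak, in an intron of NetA (34.5 and 31.9 in replicates 1 and 2), one in sog (44.0 and 42.4) and a pair in CG1677. The ranked list of replicate 1, which also holds peaks over the IDR limit, lacked 2 X peaks. One lay at Tre1, a receptor gene of germ cell migration, with a signal of 138.8 (102.2 in replicate 2), and the other at Ten-a, a teneurin gene, with 72.6 (44.5 in replicate 2).

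**Figure D2:**
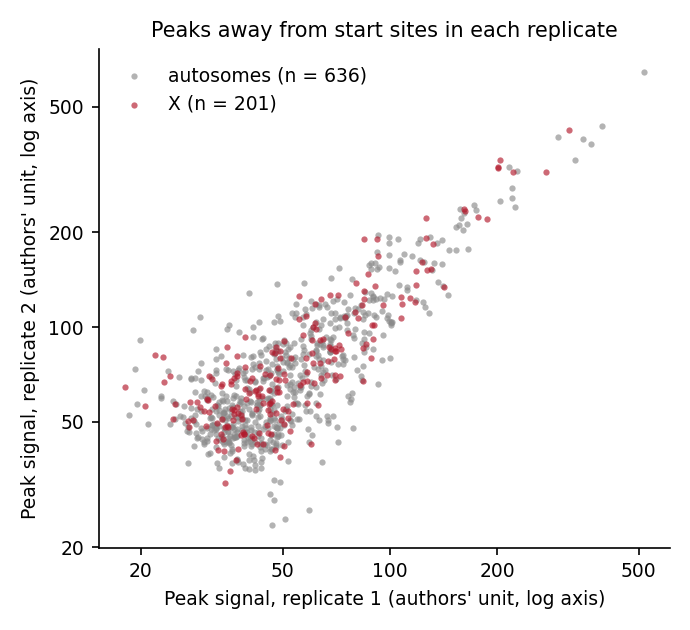
Signal of each peak away from start sites in the ranked list of replicate 1 (horizontal) and of replicate 2 (vertical), both in the authors' unit on log axes, for all X peaks but 2 (red) and 636 autosomal peaks (grey). The X peaks lie within the cloud of autosomal peaks, and the strongest X peak, in CG32772, stands at 318.2 and 421.4.

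X peaks lay closer together than autosomal ones. Another X peak away from gene starts lay within 5000 bp of 72 of the 203, or 35.5% (28.9 to 42.5). On the autosomes this held for 149 of 640, or 23.3%, and at most 27.3% on any large arm. The median distance to the nearest peak of any class, those near gene starts included, was 5835 bp on X and 12051.5 bp on the autosomes. Genes with 3 or more peaks in them numbered 14 of 133 with any on X (10.5%, interval 5.88 to 17.0) and 19 of 403 on the autosomes (4.71%, 2.86 to 7.26). Among the X genes is lncRNA:CR44357, which shares its 8 peaks with CG1677. Genes with 3 or more took 60 of the 203 X peaks, or 29.6%, and 68 of the 640 autosomal peaks, or 10.6%. Counting each gene once, 122 of 2196 protein-coding X genes held a peak (5.56%, 4.63 to 6.60), against 384 of 11749 autosomal ones (3.27%, 2.95 to 3.61). Neither difference was tested.

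Genes with a peak were long. The median protein-coding gene with a peak measured 22.7 kb on X, where the median of all protein-coding genes was 2.52 kb, and 19.9 kb on the autosomes, where it was 2.10 kb. Most of them had no Ravus peak at their own start sites. Of the 122 X genes 23 did, or 18.9% (12.3 to 26.9), and of all 2196 X genes 7.60% did. The autosomal shares were 18.2% and 8.55%. These comparisons with all genes were not matched for gene length and were not tested.

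CHES-1-like held the most peaks of any X gene. Its 9 peaks lay within 14.9 kb of a gene of 27.0 kb, with signals from 74.4 to 382.5, and 7 of them stood in the thresholded lists of both replicates. The strongest lay 2.36 kb from the 5′ end of the gene, at 382.5. The next were at 11.0 kb, with a signal of 257.0 (92.9 and 167.5 in replicates 1 and 2), and at 8.98 kb, with 240.0 (113.9 and 124.0). The gene also had a peak of 161.0 at a start site.

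CG1677 held 8 peaks, in introns that it shares with the overlapping lncRNA:CR44357, over 43.0 kb. They were weaker, with signals from 81.7 to 198.4, and 3 of the 8 stood in the thresholded lists of both replicates. The start sites nearest to them belong to other genes inside or beside the same introns, among them Dok, unc-119 and brk. Tlk held 7 peaks over 32.2 kb, with signals from 87.7 to 521.6, 5 of them in both thresholded lists, and none at a start site. They fell into a group at 22.2 to 30.7 kb from the 5′ end of the gene and a pair at 53.5 and 54.4 kb. Raf held 5 peaks, all in both thresholded lists, between 0.842 and 8.58 kb from the 5′ end of a gene of 48.4 kb. Its signals ran from 109.5 to 399.0.

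Other genes held 3 to 5 peaks. The 5 peaks in kirre were spread over 310.4 kb, with signals from 79.3 to 282.0. Hr4, a nuclear receptor gene of the response to ecdysone, held 4 peaks over 36.6 kb, all in both thresholded lists, with signals from 92.5 to 217.9. NFAT held 3, at 549.2, 195.0 and 112.4. NetB, which encodes a Netrin, a guidance cue for growing axons, held 3 weak ones, from 83.7 to 90.4. The integrin gene mew held 3, from 87.0 to 103.0. Evi5, a gene for a Rab GTPase-activating protein, held 3, from 103.3 to 151.7, and the palmitoyltransferase gene Zdhhc8 held 3, from 87.0 to 142.5. CG42258 held 4, from 74.7 to 285.1, and CG14434 held 3, from 102.2 to 158.0, with a further peak of 129.6 at a start site.

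**Figure D3:**
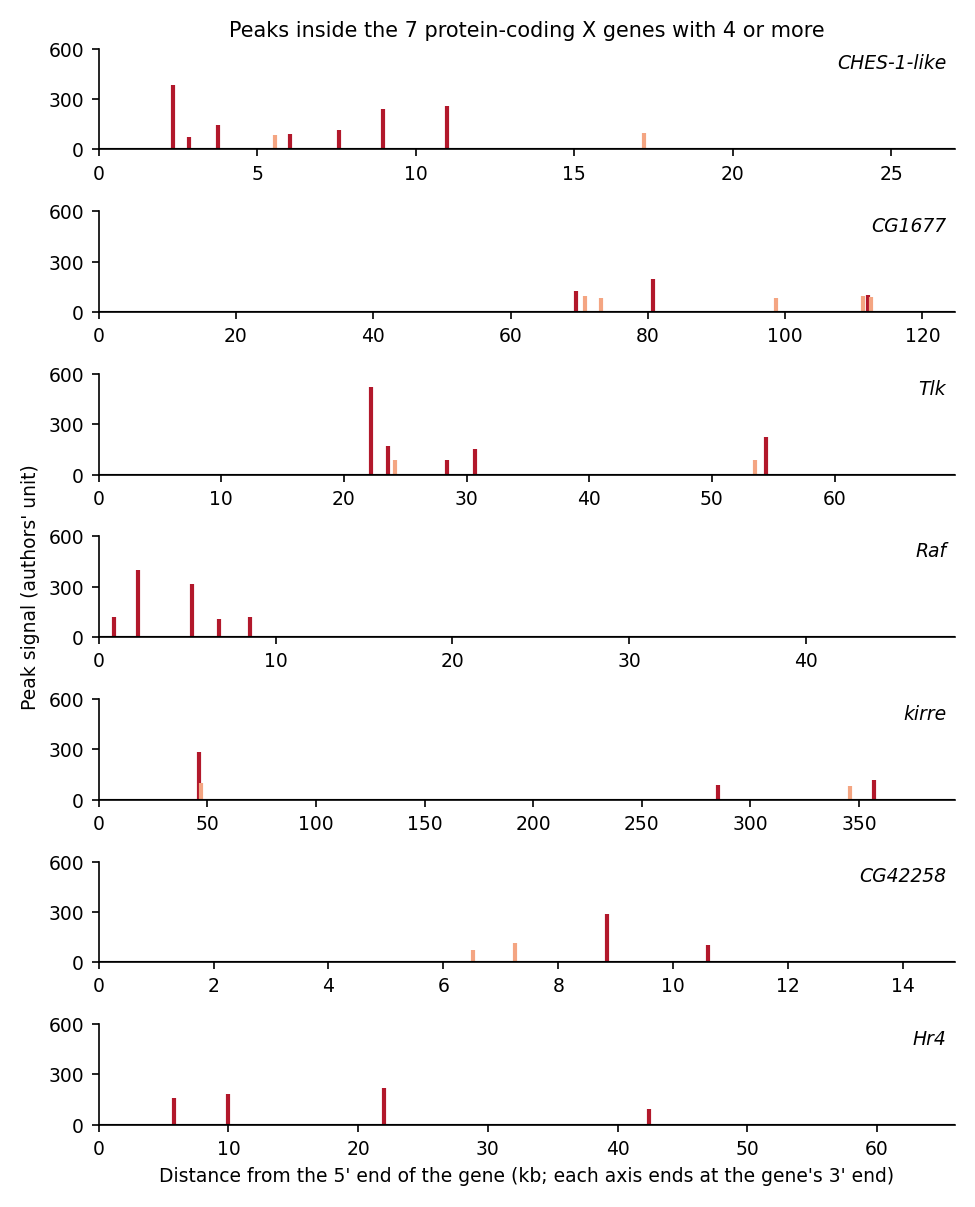
Peaks away from start sites inside the 7 protein-coding X genes with 4 or more, placed by distance from the 5′ end of the gene in kb, with the height of each line giving the signal in the authors' unit. Dark lines stand in the thresholded lists of both replicates and light lines do not. The 5 peaks of Raf lie in the first 8.58 kb of the gene, the 9 of CHES-1-like between 2.36 and 17.2 kb, and those of CG1677 from 69.5 kb onward.

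The lncRNA:CR44619 locus carried 5 peaks within 4.42 kb. The strongest, at 781.1 (409.1 and 384.7 in replicates 1 and 2), lay 456 bp upstream of its start site and so is not counted among the 203. Of those that are, one lay in an exon of the neighbouring lncRNA:Vinr, 913 bp upstream, with a signal of 117.8. The others lay downstream at 504 bp (531.7), 2648 bp (273.5) and 3506 bp (118.7). The last of these is the only X peak whose window of 100 bp to either side of the summit was found at another place in the genome, by a match of at least 80% identity over at least 100 bp. Its copy is an inverted repeat of 124 bp, identical in every base, at chrX:12754724-12754847, centred 588 bp away. A read or read pair that lies wholly within the repeat cannot be placed with certainty at either copy. On the autosomes 2 of 640 windows had a copy elsewhere.

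Peaks were spread along the whole of X. In 24 bins of 1 Mb the median was 7 peaks, 1 bin had none, and 112 peaks lay in the first 11 Mb and 91 past it. The highest bin, with 21, began at 7 Mb and held both the 9 peaks of CHES-1-like and the 8 of CG1677.

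Lists of X genes, each named for a role, were looked up next, where 5.56% of all protein-coding X genes held a peak. That share covers genes of all lengths. Genes with a peak were long, as given above, and the lists were not matched for length. Of 3 X-linked dosage compensation genes, none held a peak or had one at a start site. The nearest peak of any class lay 5.95 kb from lncRNA:roX1, with a signal of 95.1. It lay 18.6 kb from lncRNA:roX2, with a signal of 81.0, and 19.3 kb from mof, with a signal of 185.2. Of 5 X signal and sex determination genes, Sxl, the switch gene of female development, held a peak of 112.3 (51.9 and 54 in replicates 1 and 2), 1352 bp from a start site, beside a peak of 102.8 at a start site.

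Of 16 developmental transcription factor genes, 2 held a peak and none had one at a start site. The homeobox gene ct held one of 102.8 (42.5 and 60.2), 19567 bp from the nearest start site, and the T-box gene bi one of 128.7 at 19140 bp. Of 13 signalling genes, 2 held a peak. N, which encodes the Notch receptor, held one of 140.9 (63.7 and 76.7), and sog, which encodes an antagonist of BMP signalling, held one of 156.3 (67.4 and 86.7) and one of 87.7. The kinase gene sgg had a peak of 211.3 at a start site alone.

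Of 15 neuronal genes, 4 held a peak. These were norpA at 579.6, the adhesion gene Nrg at 108.1 (48.7 and 62.4), the RNA-binding protein gene elav at 93.8 (31.0 and 70.0) and the cyclic AMP phosphodiesterase gene dnc at 86.2 (33.8 and 51.2). The peak in dnc lay 29619 bp from a start site. Peaks at start sites were stronger in the last 2, at 308.5 for elav and 341.7 for dnc. Of 6 X genes on a list named for Polycomb and architectural genes, ph-p and CG1677 held a peak. The gene ph-d held none but had the start site nearest to one. CG1677 is counted because the list names it, and the data used here give it no such role. The neighbouring genes ph-p and ph-d encode the Polyhomeotic subunits of Polycomb repressive complex 1. An intron of ph-p held one of 102.7 (35.8 and 65.7), beside the peak of 873.1 within 500 bp of a start site, and ph-d had the intergenic peak named above. The peaks in CG1677 are those described above. The lists were chosen with earlier results of these data known, and their counts are a description.

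Summits on X lay in dips of GC content. The mean GC content of the summit window, which reaches 50 bp to either side, was 32.0% ± 7.47 (SD over 203 peaks), and that of windows of the same length centred 300 bp away on each side was 42.7% ± 7.50. The difference was −10.7 ± 9.79 percentage points, and the summit was lower in 177 of 203, or 87.2%. On the autosomes the summits had 31.0%, the flanks 44.2% and the difference was −13.3 ± 11.5, with the large arms from −12.5 to −14.0. With flanks at 300 bp the dip on X was thus shallower than on each of these arms, by less than the SD between peaks. The gap depends on that distance. In windows of 41 bp, X had 30.6% at the summit, 45.6% at 180 bp to the left and 44.2% to the right. The autosomes had 30.0%, 44.4% and 44.9%. Other flank distances were not run for the difference. Windows of the same length over all sequence away from start sites had a mean of 42.4% on X and 42.1% on the autosomes. The longest run of A and T was 11.0 bp on average at X summits and 8.69 bp in their flanks.

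The deepest dip among X peaks was in Tlk, at the peak with a signal of 88.3 (37.2 and 55.6 in replicates 1 and 2). Its summit window had 15.8% GC, which is 35.1 points under its flanks (a difference of −35.1). The greatest difference the other way was in the 3′ UTR of CG14440, where the summit had 42.6% GC and the flanks 27.7%. That peak had a signal of 103.7 (51.8 and 51.3). The 2 Raf peaks among the strongest had 35.6% and 40.6% at their summits, against 26.7% at the strongest Tlk peak and 20.8% at that of baz, so strong peaks were not all at the most A/T-rich summits.

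**Figure D4:**
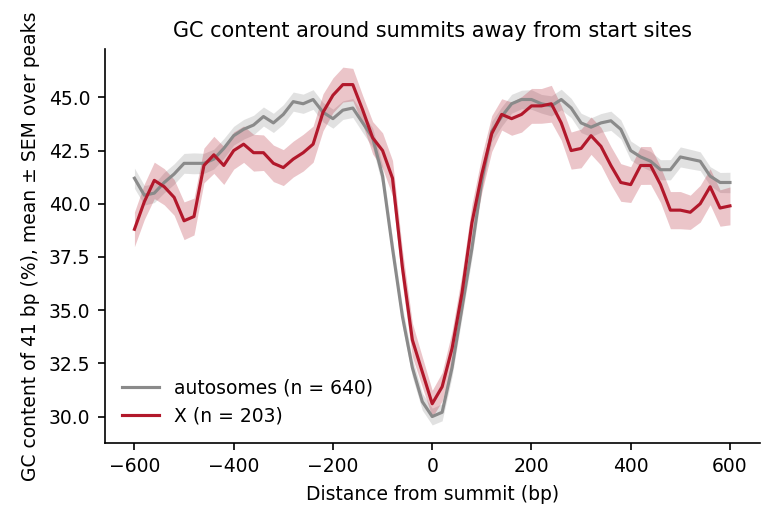
Mean GC content in windows of 41 bp, in percent, against the distance from the summit in bp, for 203 X peaks (red) and 640 autosomal peaks (grey). Bands are the standard error over peaks. Both curves dip at the summit, where the summit windows average 32.0% on X and 31.0% on the autosomes.

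The short words that were more frequent at X summits than beside them were made of A and T. Words of 6 letters were counted on both strands, as the share of summit windows holding each. All 10 words with the largest excess over the flanks held no G or C. ATTTAA stood in 32.0% of X summit windows and 10.3% of flanks, TATTAA in 23.6% and 5.42%, and ATTATA in 23.2% and 6.4%. At autosomal summits these words stood in 30.8%, 23.4% and 17.7% of windows. They overlap one another in sequence, so they are not separate observations.

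Of the motifs searched by their letters, several that are mostly A and T were more frequent at X summits than in their flanks, but 2 runs made only of those letters were not. TATAAA stood in 21.2% of X summit windows and 9.61% of flanks, where 10.9% of all windows away from start sites on X hold it. AATAAA, which is the same search as its reverse complement TTTATT, stood in 30.0% and 18.2%, against 18.7% of all windows. TTTATG stood in 16.7% and 7.39%, against 10.2%. GATAAG stood in 5.42% (interval 2.74 to 9.49) and 3.45%, against 3.87%. TTAATTAA was rare, with 2 summit windows (0.985%) and 2 flank windows (0.493%), against 1.03%. The alternating run ATATATAT was rare, at 0.985% of X summits (2 peaks) and 1.97% of flanks, against 2.49% of all X windows, and at 4.53% of autosomal summits, where the large arms ran from 2.78% to 6.94%. The run AAAAAAAA stood in 11.8% of X summits and 14.0% of their flanks, against 8.30% of all windows.

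The other motifs described here were less frequent at X summits than in their flanks. GAGAG stood in 9.85% of X summit windows and 22.2% of flanks, where 11.4% of all windows hold it, and at autosomal summits in 9.22%. Its longer form GAGAGAGA, which overlaps it, stood in 0.985% of X summits and 2.96% of flanks, against 0.733% of all windows. CACACACA stood in 0.985% of summits and 9.36% of flanks, against 2.98%. CANNTG stood in 29.1% and 44.1%, against 39.9%. A match says only that these letters are in the window, and the flanks are richer in G and C than the summits.

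X and autosomal summits were also compared for repeated sequence. No summit of the 203 lay in an annotated transposable element, which allows a share of up to 1.80%, and 2 of 640 autosomal summits did. On a base soft-masked as repetitive or of low complexity in the reference lay 47 X summits, or 23.2%, and 24.4% of autosomal ones. At least 1 such base stood in the summit window of 140 X peaks, or 69.0%, and of 76.4% of autosomal peaks.

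The authors' ranked lists also hold weaker candidates, and among these the order of X and the autosomes depended on strength. Away from start sites X had 945 ranked peaks, which is 13.4% of the total on the arms, and 204 of them overlapped a thresholded peak, or 21.6% (19.0 to 24.3). Over all arms 12% of 7054 did, and on the autosomes 10.5% (9.77 to 11.3), with the large arms from 9.99% to 11.6%. Ranked peaks that overlapped none were sparser on X, at 36.0 per Mb against 57.4 on the autosomes and 50.5 to 62.2 on the large arms. Introns held 63.6% of these weaker candidates on X and 48.2% on the autosomes. The number of weak candidates on a chromosome depends on its read depth and on the control, neither of which was analysed here, and their part in the result was not tested.

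**Figure D5:**
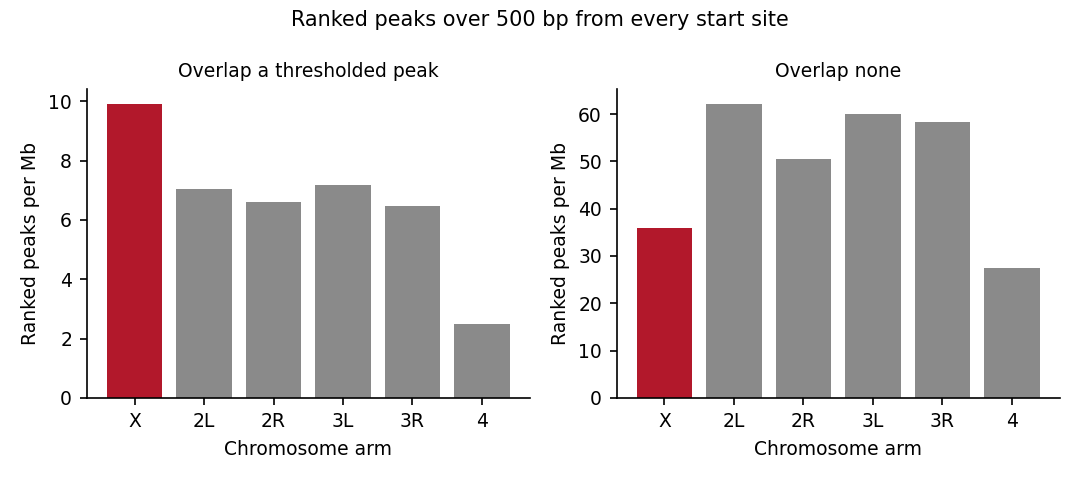
Ranked peaks over 500 bp from every start site per Mb of such sequence on each arm, split into those that overlap a thresholded peak (left) and those that overlap none (right). The vertical axes differ in scale. X has the highest bar on the left and stands at 36.0 per Mb on the right, below the 50.5 to 62.2 of the large autosomal arms.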

How the data were processed

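Ravus-eGFP ChIP-seq of whole embryos gave 8 peak lists on dm6, 2 for each replicate and the rest for the series. The signal of each peak is the peak caller's value as deposited by the authors, in a unit that no label or header names. The deposited −log10 of the IDR runs to a cap of 5, and thresholded peaks lie within a limit of 2 on that scale. For the aligner, peak caller and control, names were not given in the sources used here. Read depth is unknown, so a site without a peak may lie below detection. Chromatin was sonicated to 200 to 800 bp, per the labels.

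The lists were joined as described, with summits from the files and start sites, exons and introns from Ensembl release 115 (BDGP6.54), leaving out transposable element entries. A summit in several features was given 1 class, exons first. Sequence came from the RefSeq dm6 assembly. A replicate value is that of the strongest overlapping ranked peak, by at least 1 bp, so neighbouring peaks can share one. Repeated windows were sought with blastn 2.17.0 (e value 1e-05). Shares have exact Clopper-Pearson 95% intervals from scipy 1.17.1, for counting error over peaks only. Scripts ran in Python 3.11.15 with pandas 2.3.3 and were checked on simulated peaks and against bedtools 2.31.1.

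No test was made between X and autosomes, since peaks are sites and there is 1 group. The named genes are those of the 20 strongest X peaks, genes with 3 or more, listed genes with a peak, and the 3 peaks nearest the 500 bp limit on each side and farthest from a start site; a few others were chosen after their values were seen. The values of 1 of the 20 strongest are not reported here. The members and lists were chosen with earlier results of these data known. Alternatives were other lists, distances, start sites, windows, repeat and overlap rules, signal limits and each replicate alone.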

Additional observations from a re-analysis of the deposited data

Results flagged for a closer look

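A signal was present outside the arms that the account above uses. The joined lists held 5 further peaks on unplaced scaffolds assigned to X, with signals of 62.2 to 107.3. They have no annotated place on the arm and entered no count.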

How the results depend on the processing

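Of 80 alternative values of 10 results, 63 stayed within the spread set for them and 17 moved out of it. A turn of direction was looked for in the GC difference alone, and none was found there. Keeping peaks with signal at or above the median of their list left 98 of 203 X peaks, with a GC difference of −9.83 points, 82.7% in both replicates and a repeated window share of 0%. The conservative list alone gave 78.4% in both replicates and 18.1% of ranked peaks passing. The GC difference was −9.48 with unmasked summits, −11.2 over 1000 bp from start sites, −7.28 in summit windows about 2 times as long and −11.1 in windows about 2 times as short. In the longer and shorter windows TATAAA stood in 35.0% and 10.3%, and GAGAG in 27.6% and 3.94%. A match of 90% over 150 bp left a repeated window share of 0%, against 0.493%. With 1 replicate left out, the GC difference ran from −10.9 to −10.8 and the repeated window share from 0 to 0.446%. The cause was not tested, other than that wider windows hold more sequence. The density ratio ran from 1.38 to 1.62 and the intron share from 82.1% to 87.3% over the alternatives run. No paired analysis was possible because the series has 1 group. Without read depth, a peak missing from X or an autosome cannot be told from one below detection, and X copy number in the embryos was not measured.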
